A study of Homo sapiens with 8 samples.

Results

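The interferon response and class I antigen presentation were described here in BT474 cells, an established line from a human breast tumour that carries many copies of ERBB2. The genes were taken by symbol from a list of 47, of which all 47 were among the 26475 genes of the count table. They comprised 32 interferon-induced genes, 4 interferon transcription factors and 11 genes of class I presentation. RNA of 8 libraries was sequenced, 4 labelled NPY1R high and 4 labelled NPY1R low, where NPY1R encodes the neuropeptide Y receptor Y1. All 8 libraries came from the same cell line at sub-confluent density, with no drug or other agent named for either group. The labels do not give how cells of high and low NPY1R were obtained, nor whether replicates were separate cultures, so p-values measure only the spread between these samples, which may be technical. The study as a whole concerns cells that survive the EGFR and ERBB2 inhibitor lapatinib, and the comparison asks which genes differ between cells with high and with low NPY1R.

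Type I interferons bind the receptor chains IFNAR1 and IFNAR2, whose kinases JAK1 and TYK2 activate STAT proteins. STAT2 with IRF9 forms part of the factor ISGF3, which binds the interferon-stimulated response element in the promoters of interferon-induced genes. Many of these genes encode antiviral proteins and are kept low in unstimulated epithelial cells. Class I presentation carries peptides, cut by the proteasome and pumped by TAP1 and TAP2 into the endoplasmic reticulum, to the cell surface on HLA molecules bound to B2M, and several of its genes are also raised by interferon.

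The response element is shown first, because genes higher in NPY1R high, a lower gene and genes with almost no reads carry the same letters. Promoter windows of 300 bases, 250 before to 50 after the start site, came from RefSeq (GRCh38.p14) and matched 38 of the 47 genes. They were searched on both strands for the core of the element, GAAA and GAAA separated by any 2 bases, with 0 mismatches, and overlapping matches were kept. Capitals mark the match, which reads as TTTC and TTTC where it lies on the other strand.
SAMD9 (chr7:93118081-93118140, minus strand, higher in NPY1R high): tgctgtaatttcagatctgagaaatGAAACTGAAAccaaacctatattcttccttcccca
IFIH1 (chr2:162318803-162318868, minus strand, higher): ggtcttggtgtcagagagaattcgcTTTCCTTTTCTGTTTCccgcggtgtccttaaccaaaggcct
IFIT5 (chr10:89414513-89414542, plus strand, higher): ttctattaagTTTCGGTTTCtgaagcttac
PARP9 (chr3:122564322-122564351, minus strand, higher): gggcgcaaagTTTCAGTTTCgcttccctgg
B2M (chr15:44711348-44711413, plus strand, lower): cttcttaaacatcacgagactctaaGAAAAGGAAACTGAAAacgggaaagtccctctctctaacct
ISG15 (chr1:1013359-1013424, plus strand, too few counts to test): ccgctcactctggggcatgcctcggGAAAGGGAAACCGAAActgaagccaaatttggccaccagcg
BST2 (chr19:17405720-17405785, minus strand, too few counts to test): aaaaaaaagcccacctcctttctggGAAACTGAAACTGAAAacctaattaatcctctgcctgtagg

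The core of the response element was found for 25 of the 38 genes (65.8%) and for 1195 of 27305 genes with a window (4.38%). Interferon-induced genes held it in 19 of 26 cases and class I genes in 6 of 9. The transcription factors held it in 0 of 3. Among genes higher in NPY1R high it was found for 5 of 6, with HERC6 the exception, among lower genes for 1 of 2, among genes not called for 11 of 20, and among genes with too few counts to test for 8 of 10. PARP9 and DTX3L, read in opposite directions from the same promoter region, share 1 match that is counted for both. The letters TTCNNNGAA, the core of the gamma-activated sequence bound by STAT dimers, were found for 11 of the 38 genes (28.9%) and for 9.38% of all genes with a window. By call, they were found for 0 of 6 genes higher in NPY1R high and 0 of 2 lower genes. They were found for 8 of 20 genes not called, among them IRF1, IRF9, TAP1 and PSMB8, and for 3 of 10 with too few counts to test. These matches are a description of letters and not of bound sites. The list was chosen for its link to interferon, so its higher share of the response element is no result of these libraries.

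Total counts ranged from 18025648 to 30609791 per library. NPY1R, which sets the groups, had 699.2, 727.8, 1049 and 950.2 CPM (counts scaled by library size) in NPY1R high replicates 1 to 4, and 90.8, 94.9, 92.8 and 103.7 CPM in NPY1R low replicates 1 to 4. The luminal markers KRT8, KRT18, KRT19, EPCAM, CDH1, ERBB2, ESR1, GATA3 and FOXA1 were all tested, with ERBB2 at a mean of 3468 CPM. Of these 9, 4 were called (44.4%, beside 13.6% of all tested genes). The log2 changes were 0.59 for ESR1 (SE 0.05), 0.60 for GATA3 (SE 0.11), -0.30 for EPCAM (SE 0.05) and -0.23 for FOXA1 (SE 0.05). The part of these 4 genes in the other differences was not tested. Of 14 leukocyte markers, 12 had too few counts to test. PTPRC had at most 1 count in a library, CD3E and MS4A1 had 0, and the highest of these 12 was CD8A at 13 counts. CD68 and LYZ were measured at means of 1.35 and 0.68 CPM. Most defining markers of immune cells were thus at or near 0 in both groups. Of 9 fibroblast and endothelial markers, 7 had too few counts to test and 0 were called. The tested ones, COL1A1 and VWF, had means of 14.8 and 13.9 CPM, with log2 changes of -0.14 (SE 0.19) and -0.48 (SE 0.17).

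After a filter on low counts, 34 of the 47 genes remained for the test, 20 of them interferon-induced, 4 transcription factors and 10 of class I. The filter left out 12 interferon-induced genes and HLA-F. Per kilobase of transcript, interferon-induced genes ranged from 0.00215 CPM for IFI44L to 19.6 CPM for USP18. USP18 stood highest, followed in CPM per kilobase by TRIM25 at 17.2, IFIH1 at 12.2 and DTX3L at 10.7. At the other end were XAF1, IFITM1 and IFI44L, with 5, 1 and 2 counts over all 8 libraries.

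**Figure D1:**
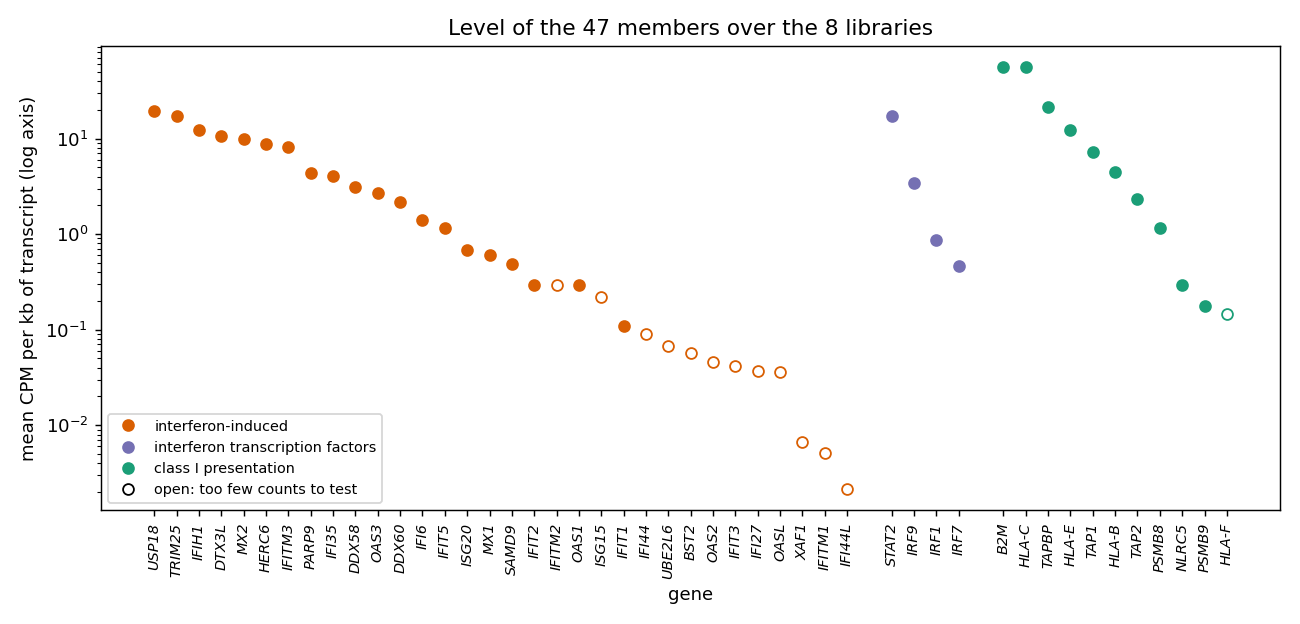
Mean level of each of the 47 genes over the 8 libraries, as CPM per kilobase of the longest annotated transcript on a log axis. Filled points were tested and open points had too few counts. B2M and HLA-C stand highest at 56.0 and 55.9 CPM per kilobase, and 12 of 32 interferon-induced genes are open.

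The genes left out include textbook markers of an interferon response. ISG15, a ubiquitin-like protein, had 5, 3, 1 and 5 counts in NPY1R high replicates 1 to 4 and 6, 13, 3 and 0 in NPY1R low. IFI27, an inner-membrane protein of mitochondria, had between 1 and 5 counts. UBE2L6, the enzyme that carries ISG15 to its targets, had at most 5 counts in a library, IFIT3 at most 6, OASL at most 7, IFI44 at most 8 and IFITM2 at most 11. OAS2 had 24 counts in NPY1R low replicate 2 and at most 6 in any other library. BST2, which tethers budding virus, had at most 3. A count of 0 allows up to 3 counts, a limit that covers counting error only. Small differences in these genes were not detectable at this depth, and the size of change that could be seen was not computed.

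In the fit across all genes (edgeR's quasi-likelihood test, Benjamini-Hochberg adjusted p below 0.05), 9 of the 34 were called, against 13.6% of all tested genes. Of these, 6 were higher in NPY1R high, all of them interferon-induced, against 5.78% of all tested genes. The other 3 were lower, namely USP18 and the class I genes HLA-B and B2M, against 7.81% of all tested genes. The median log2 change was 0.24 over the 20 interferon-induced genes, 0.14 over the 4 transcription factors and -0.02 over the 10 class I genes. Over all tested genes it was -0.03. Across all genes, 42.5% of calls were higher with trimmed-mean scaling on its default reference, NPY1R low replicate 4. With each other library as the reference the share was 49.5% to 53.1%, and with upper-quartile scaling 56.3%. Each of these 9 calls held under all of these scalings. A difference in bulk RNA cannot tell a change in the number of cells that express a gene from a change in RNA per cell.

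**Figure D2:**
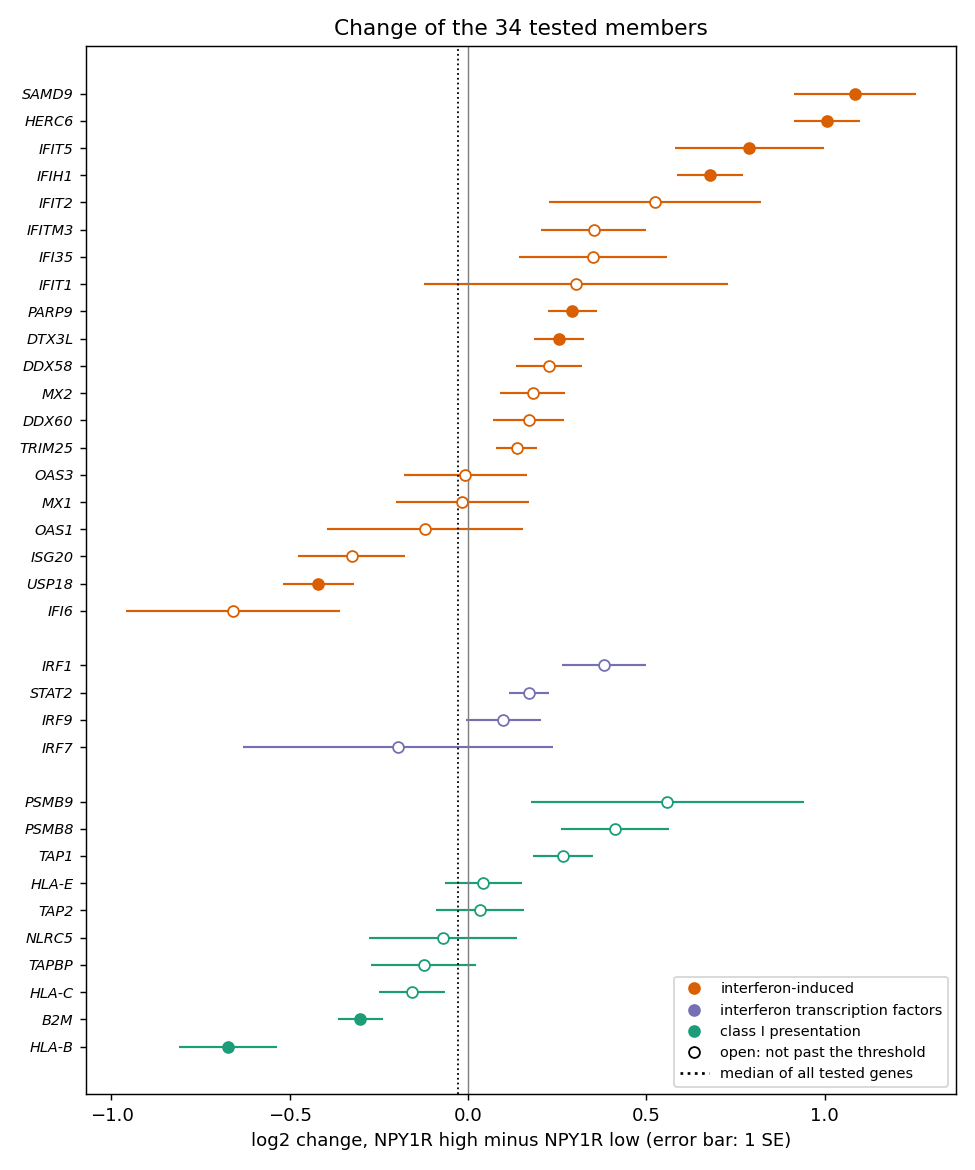
Log2 change (NPY1R high minus NPY1R low) of the 34 tested genes with 1 SE, by group of genes. Filled points passed an adjusted p of 0.05 and the dotted line is the median of all tested genes. Interferon-induced genes spread from -0.66 for IFI6 to 1.09 for SAMD9, and class I genes from -0.67 for HLA-B to 0.56 for PSMB9.

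Of the 6 genes that rose, HERC6, SAMD9 and IFIH1 had the lowest adjusted p. HERC6, a HECT-domain protein of the family whose member HERC5 attaches ISG15 in human cells, lies on chromosome 4 (88378852 to 88443097, RefSeq GRCh38.p14). It had 38.3, 41.8, 48.6 and 48.4 CPM in NPY1R high replicates 1 to 4 and 22.4, 23.2, 20.2 and 22.1 CPM in NPY1R low. All NPY1R high libraries stood above all NPY1R low libraries, a 2.01-fold difference (log2 1.01, SE 0.09, edgeR quasi-likelihood adjusted p 9e-05).

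SAMD9, a cytoplasmic protein that restricts poxviruses and slows translation, lies on chromosome 7 (93099518 to 93117979). Its level was low, at 4.05, 3.98, 5.21 and 5.07 CPM in NPY1R high and 2.01, 1.72, 2.47 and 2.44 CPM in NPY1R low. The groups did not overlap, and the log2 change was 1.09 (SE 0.17, edgeR quasi-likelihood adjusted p 0.00215). IFIH1, known as MDA5, senses long double-stranded RNA in the cytoplasm and lies on chromosome 2 (162267074 to 162318684). It had 55.3, 60.9, 52.1 and 48.1 CPM in NPY1R high and 37.2, 33.3, 29.9 and 34.6 CPM in NPY1R low. Again every NPY1R high library was above every NPY1R low library, by a log2 of 0.68 (SE 0.09, edgeR quasi-likelihood adjusted p 0.000877). HERC6, SAMD9 and IFIH1 passed the threshold in all 30 alternatives run.

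IFIT5, which binds RNA by its 5′ end, rose on a low level. It had 5.57, 5.58, 7.38 and 5.23 CPM in NPY1R high and 2.18, 3.75, 3.52 and 4.36 CPM in NPY1R low, a log2 change of 0.79 (SE 0.21, edgeR quasi-likelihood adjusted p 0.0331). The groups did not overlap, although replicate 3 of NPY1R high stood away from the rest of its group. The call was lost without NPY1R high replicate 1, 2 or 3 or NPY1R low replicate 2 or 3, where the adjusted p ranged from 0.0553 to 0.084.

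**Figure D3:**
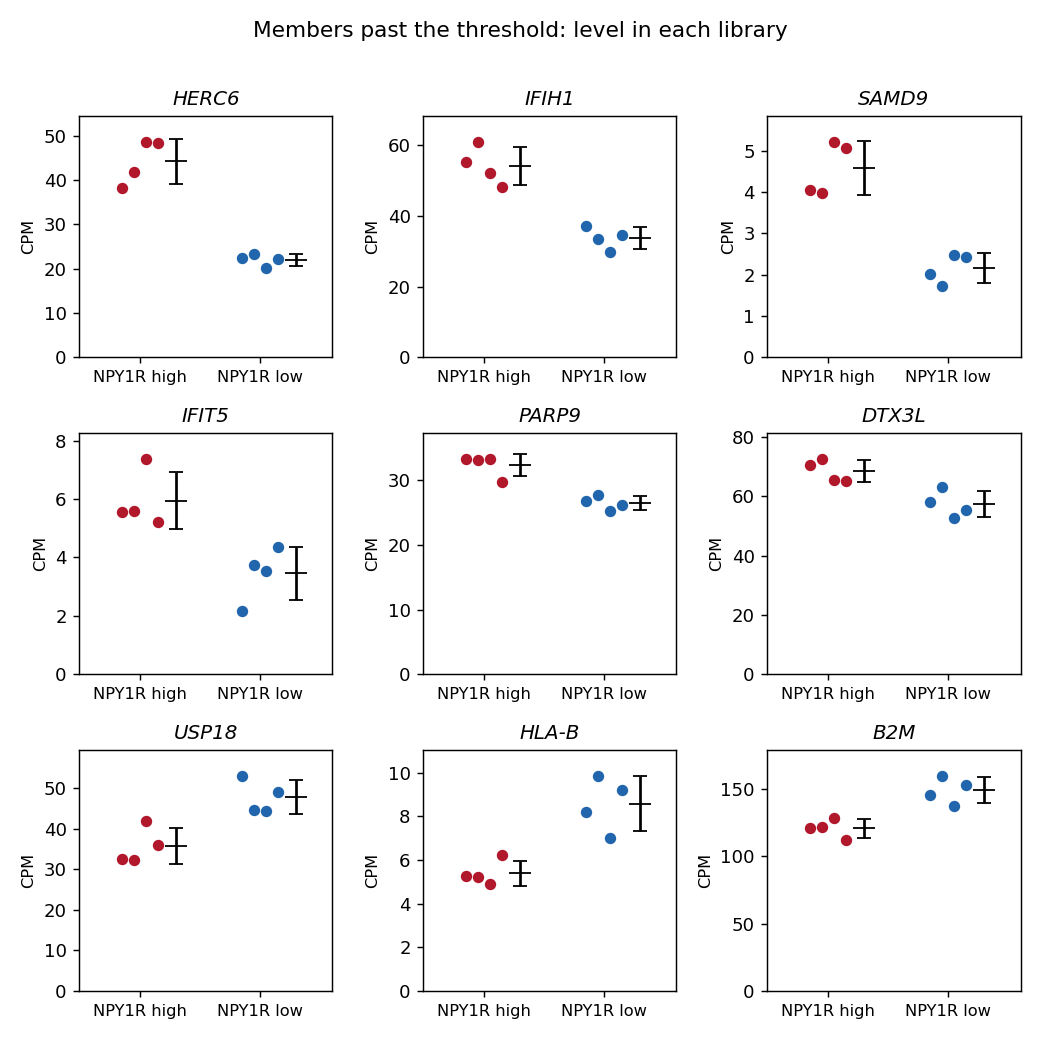
CPM in each library for the 9 genes past the threshold, with the mean and SD (n = 4) beside the points of each group. In all 9 panels the 4 NPY1R high and the 4 NPY1R low libraries do not overlap, and HERC6 has means of 44.2 and 22.0 CPM.

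PARP9 and DTX3L, which form a complex that modifies chromatin and supports interferon signalling, rose by similar small amounts. PARP9 had 33.3, 33.1, 33.3 and 29.8 CPM in NPY1R high and 26.8, 27.7, 25.2 and 26.1 CPM in NPY1R low, a log2 change of 0.29 (SE 0.07, edgeR quasi-likelihood adjusted p 0.019). DTX3L had 70.6, 72.7, 65.6 and 65.1 CPM in NPY1R high and 58.1, 63.2, 52.9 and 55.4 CPM in NPY1R low, a log2 change of 0.26 (SE 0.07, adjusted p 0.0372 in the same test). Neither gene's groups overlapped. The genes overlap each other at their 5′ ends on chromosome 3, and the kit was stranded, but whether counting used the strand is not given in the sources used here, so their values are not fully separate. Both calls were lost with each library's trend on transcript GC content removed (adjusted p 0.0505 for PARP9 and 0.127 for DTX3L), where the log2 changes were still 0.26 and 0.22, and both were kept with the replicate block and that offset together (adjusted p 0.0196 and 0.0219). They were also lost without NPY1R high replicate 1 or 2 or NPY1R low replicate 3 (0.0568 to 0.0628 for PARP9 and 0.0995 to 0.11 for DTX3L).

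USP18 moved the other way. It removes ISG15 from proteins and dampens signalling at the type I receptor. It had 32.5, 32.4, 41.9 and 36.1 CPM in NPY1R high and 53.1, 44.5, 44.4 and 48.9 CPM in NPY1R low. All NPY1R high libraries were below all NPY1R low libraries, with a log2 change of -0.42 (SE 0.10, edgeR quasi-likelihood adjusted p 0.0191). USP18 has a near-identical copy, USP41, not analysed here, so its counts are uncertain. Without NPY1R high replicate 1, 2 or 4 or NPY1R low replicate 1 the adjusted p ranged from 0.0599 to 0.0962.

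The other tested interferon-induced genes did not pass. TRIM25, a ligase that activates the sensor DDX58, had 108.5, 105.2, 93.2 and 105.7 CPM in NPY1R high and 94.8, 92.5, 94.9 and 93.3 CPM in NPY1R low (log2 change 0.14, SE 0.06, edgeR quasi-likelihood adjusted p 0.157). DDX58, known as RIG-I, senses RNA with a 5′ triphosphate. It had 13.4 to 15.6 CPM in NPY1R high and 11.7 to 13.6 CPM in NPY1R low (log2 change 0.23, SE 0.09). DDX60, a related helicase, had log2 change 0.17 (SE 0.10), and the membrane protein IFITM3, which blocks virus entry, 0.35 (SE 0.15). IFITM3 shares near-identical sequence with IFITM1 and IFITM2, so its reads are uncertain.

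The MX dynamin-like GTPases and the OAS enzymes, which make the messenger that activates RNase L, were not called. MX1 had 2.40, 1.78, 1.84 and 2.31 CPM in NPY1R high and 2.38, 2.45, 1.74 and 1.81 CPM in NPY1R low, with a log2 change of -0.02 (SE 0.19) whose sign turned with every other scaling. MX2, at 42.6 ± 2.35 and 37.6 ± 4.56 CPM (SD, n = 4 each), had 0.18 (SE 0.09). OAS1 had 0.481 to 0.905 CPM in NPY1R high and 0.604 to 1.01 CPM in NPY1R low. OAS3 had 18.2 ± 3.82 and 18.3 ± 3.23 CPM (SD, n = 4 each). The SE of the log2 change was 0.17 for OAS3 and 0.28 for OAS1.

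Low-level genes spread most between libraries. IFIT1, a binder of uncapped RNA, had 0.550, 0.149, 0.724 and 0.826 CPM in NPY1R high and 0.353 to 0.503 CPM in NPY1R low, so the groups overlapped (log2 change 0.30, SE 0.43). IFIT2 had 0.859 to 1.82 CPM in NPY1R high and 0.701 to 1.33 CPM in NPY1R low (log2 change 0.52, SE 0.30). IFI6, a mitochondrial survival factor, had the most negative change of the interferon-induced genes, -0.66 (SE 0.30, edgeR quasi-likelihood adjusted p 0.2), at 0.904 ± 0.394 and 1.45 ± 0.208 CPM (SD, n = 4 each). The exonuclease ISG20 had a log2 change of -0.33 (SE 0.15) and IFI35 one of 0.35 (SE 0.21).

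Of the transcription factors, 0 of 4 passed. An unadjusted p below 0.05 from edgeR's quasi-likelihood test was reached by 2 of them, against 26.2% of all tested genes. STAT2 had 57.9, 62.5, 60.2 and 60.5 CPM in NPY1R high and 56.5, 53.7, 51.1 and 52.5 CPM in NPY1R low, so the groups did not overlap. Its log2 change was 0.17 (SE 0.06, edgeR quasi-likelihood adjusted p 0.0721), and over the alternatives the adjusted p ranged from 0.0252 to 0.198, under 0.05 in 12 of 30. IRF1, which is induced by interferon gamma and drives class I genes, had 5.02, 5.58, 4.70 and 5.18 CPM in NPY1R high and 3.89, 3.61, 3.98 and 4.24 CPM in NPY1R low. The groups did not overlap for it either (log2 change 0.38, SE 0.12, edgeR quasi-likelihood adjusted p 0.0617, and 0.0285 to 0.511 over the alternatives, under 0.05 in 8 of 30). IRF9, the DNA-binding partner of STAT2, had 6.5 ± 0.408 and 6.06 ± 0.33 CPM (SD, n = 4 each, log2 change 0.10, SE 0.10). IRF7, the amplifier of interferon production, had 0.521 to 1.2 CPM and 0.353 to 1.61 CPM.

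Of the 10 tested class I genes, 2 fell, against 7.81% of all tested genes, and 0 rose, against 5.78%, a count too small to tell from that share. B2M, the invariant light chain on chromosome 15 (44711517 to 44718145), had 120.9, 121.4, 128.2 and 111.7 CPM in NPY1R high and 145.6, 159.7, 137.3 and 152.4 CPM in NPY1R low. All NPY1R high libraries were lower, with a log2 change of -0.30 (SE 0.06, edgeR quasi-likelihood adjusted p 0.0101). Without NPY1R high replicate 4 the adjusted p was 0.0587 and the log2 change -0.23. HLA-B, a heavy chain on chromosome 6 (31353875 to 31357179), had 5.26, 5.21, 4.92 and 6.22 CPM in NPY1R high and 8.22, 9.88, 7.0 and 9.23 CPM in NPY1R low. The groups did not overlap, and the log2 change was -0.67 (SE 0.14, edgeR quasi-likelihood adjusted p 0.00908).

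HLA-B and HLA-C are closely similar and highly variable between people, so how reads of this cell line's alleles were divided between them is uncertain. HLA-C had 110.7, 97.8, 93.5 and 95.7 CPM in NPY1R high and 123.3, 118.5, 108.7 and 92.8 CPM in NPY1R low, so the groups overlapped (log2 change -0.16, SE 0.09, edgeR quasi-likelihood adjusted p 0.333). Per kilobase HLA-C was at 55.9 CPM and HLA-B at 4.52. HLA-E, a heavy chain read by natural killer cells, had 32.8 ± 2.23 and 31.8 ± 4.61 CPM (SD, n = 4 each). HLA-F had at most 11 counts in a library.

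None of the tested genes of peptide supply passed, TAP1, TAP2, TAPBP, PSMB8 and PSMB9. TAP1, a subunit of the peptide pump, had 23.3, 24.1, 22.1 and 24.4 CPM in NPY1R high and 19.4, 21.9, 18.1 and 18.7 CPM in NPY1R low. The groups did not overlap (log2 change 0.27, SE 0.08, edgeR quasi-likelihood adjusted p 0.0639). TAP1 was under 0.05 in 18 of 30 alternatives, with adjusted p from 0.0154 to 0.167, including all 10 other scalings. PSMB8, a proteasome subunit exchanged in under interferon, had 2.95 to 3.37 CPM in NPY1R high and 1.89 to 2.68 CPM in NPY1R low (log2 change 0.41, SE 0.15, edgeR quasi-likelihood adjusted p 0.113). PSMB9, its neighbour with the same role, had 0.521 to 0.653 CPM and 0.157 to 0.570 CPM (log2 change 0.56, SE 0.38). Its difference came from replicates 3 and 4, at 1.26 on the log2 CPM scale, against 0.04 in replicates 1 and 2. TAP2, the other subunit of the pump, had 13.3 ± 1.55 and 13.0 ± 1.65 CPM, and the peptide editor TAPBP 77.9 ± 9.44 and 84.9 ± 18.1 CPM (SD, n = 4 each). NLRC5, the activator of class I promoters, had 1.97 ± 0.291 and 2.06 ± 0.47 CPM (SD, n = 4 each).

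By the mean of centred log2 CPM, interferon-induced genes ranged from -0.01 to 0.18 in NPY1R high libraries and from -0.19 to -0.06 in NPY1R low libraries. Class I genes ranged from -0.07 to 0.10 and from -0.28 to 0.20, so the libraries overlapped. NPY1R low replicate 4 was lowest for all 3 groups of genes, at -0.19, -0.31 and -0.28. The interferon-induced mean includes the 6 genes called higher and was not computed without them. Of its 20 genes, 7 had groups that did not overlap, those 6 and USP18. The median transcript GC content was 47.25% over tested interferon-induced genes and 56.15% over tested class I genes. With the GC offset the median log2 changes of these lists were 0.217 and -0.001. Of all 34 genes, 13 had groups that did not overlap, 10 higher and 3 lower. Over all tested genes 20.2% did not overlap, 8.77% higher and 11.4% lower.

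**Figure D4:**
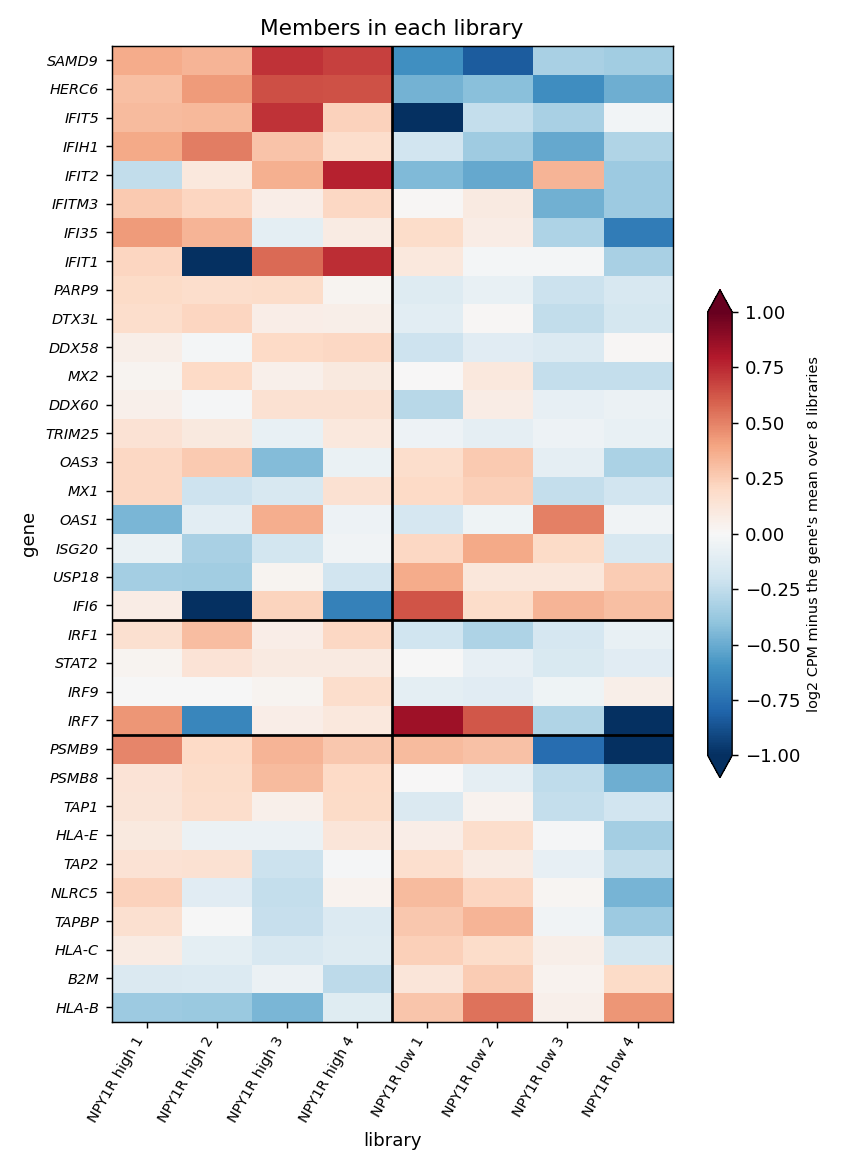
Log2 CPM of each of the 34 tested genes in each library, minus the gene's mean over the 8 libraries (colour, limited to 1 either way). Rows are grouped as interferon-induced, transcription factors and class I. SAMD9, HERC6, IFIT5 and IFIH1 are above their mean in every NPY1R high library, and HLA-B and B2M are below theirs.

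Other genes of the pathway were taken from separate lists. Of 9 interferon ligands, 0 passed the filter on low counts, and the highest count was 2, for IFNK. Of 9 receptors and kinases, all were tested and 1 was called (11.1%, near the 13.6% of all tested genes). This was JAK2, a kinase of the interferon gamma receptor, with 2.61, 3.01, 3.00 and 1.98 CPM in NPY1R high and 0.973, 1.51, 0.961 and 0.511 CPM in NPY1R low (log2 change 1.42, SE 0.29, edgeR quasi-likelihood adjusted p 0.00841). The type I receptor chain IFNAR1 had 48.3 ± 4.33 and 51.2 ± 1.99 CPM and JAK1 105.4 ± 5.31 and 108.7 ± 4.15 CPM (SD, n = 4 each). Of 8 signalling inhibitors 0 were called by edgeR's quasi-likelihood test, with an unadjusted p below 0.05 for 1 of them, SOCS3.

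Among 12 nucleic acid sensors and adaptors, 10 were tested and 1 called (10%, also near that share). TLR3, the endosomal sensor of double-stranded RNA, had 3.47, 3.94, 4.81 and 4.13 CPM in NPY1R high and 2.31, 2.87, 2.47 and 2.32 CPM in NPY1R low (log2 change 0.71, SE 0.15). Of 36 other interferon-induced genes, 26 were tested, 5 called higher and 1 lower (19.2% higher, beside 5.78% of all tested genes), with a median log2 change of 0.02. HERC5 rose from 1.64 ± 0.428 to 9.92 ± 3.88 CPM (SD, n = 4 each), with 6.29, 6.84, 12.99 and 13.55 CPM in NPY1R high replicates 1 to 4. NMI rose by a log2 of 0.42 (SE 0.11) and SP100 by 0.36 (SE 0.09), while SP110 had -0.39 (SE 0.08). Leaving out 1 library ended the call of NMI without NPY1R high replicate 2, 3 or 4 or NPY1R low replicate 1 or 3 (edgeR quasi-likelihood adjusted p 0.0556 to 0.0993), and that of SP100 without NPY1R high replicate 3 or NPY1R low replicate 1 or 2 (0.0507 to 0.054). The 10 of these genes left out by the filter, among them CXCL10, GBP1 and SAMD9L, had at most 11 counts in a library.

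Of 15 other class I genes, 14 were tested and 2 called, both higher, a share of 14.3% beside 13.6% of all tested genes. RFX5, a factor that binds class I and class II promoters, had 63.7, 62.4, 64.4 and 67.0 CPM in NPY1R high and 50.1, 48.8, 47.3 and 51.9 CPM in NPY1R low (log2 change 0.38, SE 0.06, edgeR quasi-likelihood adjusted p 0.00136). ERAP2, a trimming peptidase, had log2 change 0.44 (SE 0.12, edgeR quasi-likelihood adjusted p 0.0308). Its call was lost with the replicate number as a block (adjusted p 0.0562 in the same test), and without NPY1R high replicate 1, 3 or 4 or NPY1R low replicate 2 or 3 (0.0594 to 0.0903). The constitutive proteasome subunits PSMB5, PSMB6 and PSMB7 were not called. Of 10 class II genes, 2 were tested and 0 called by edgeR's quasi-likelihood test, also 0 at an unadjusted p below 0.05, and the class II activator CIITA had at most 8 counts.

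Several of the genes that rose lie beside other genes that rose, a description made after the values were seen. HERC6 is followed by HERC5, and before it lie PPM1K (log2 change 1.15, SE 0.14) and ABCG2 (1.59, SE 0.18), all 3 past the threshold. SAMD9 lies next to CDK6 (1.39, SE 0.19). IFIH1 lies next to GCA (0.40, SE 0.09), with KCNH7 (1.24, SE 0.20) beyond GCA on the same side. PARP9 and DTX3L are followed by PARP14 (0.24, SE 0.06). Not counting genes of the list, the 9 called genes had 14 nearest tested genes on either side. Of these 14, 5 were called, all higher and all beside genes that rose. Over all tested genes, 13.6% were called and 5.78% were called higher. HERC5 and PARP14 among the 5 are themselves on the list of other interferon-induced genes, while PPM1K, GCA and CDK6 are not. Other immediate neighbours had negative changes and were not called, HEPACAM2 beside SAMD9 at -1.23 (SE 0.41) and SLC4A10 beside IFIH1 at -0.46 (SE 0.22). The neighbours of USP18, IFIT5, HLA-B and B2M were not called.

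**Figure D5:**
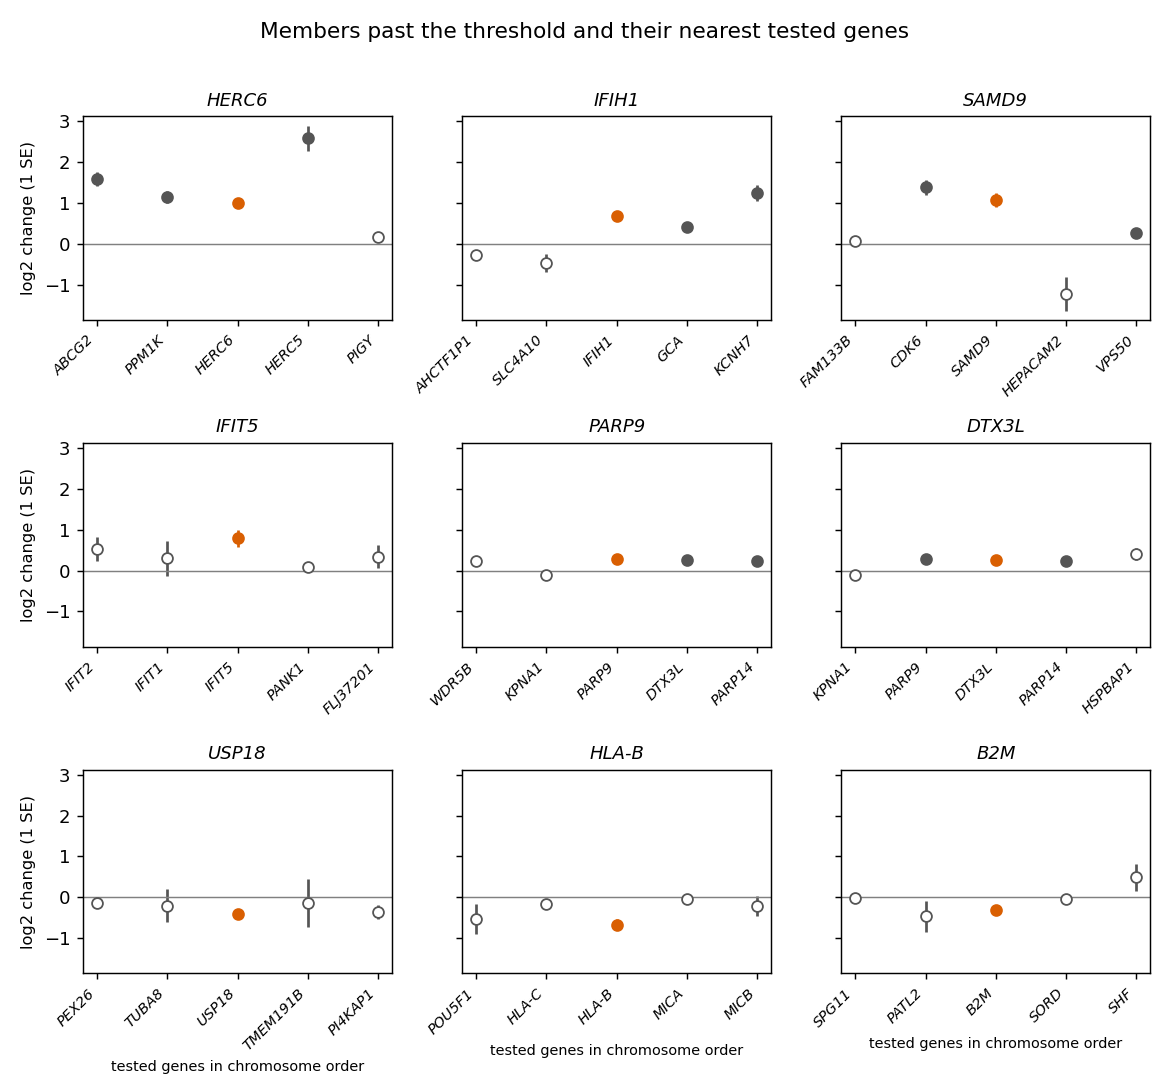
Log2 change with 1 SE of the 9 called genes (orange, centre) and the 2 nearest tested genes on either side, in the order along the chromosome. Filled points passed the threshold. The HERC6 panel holds 4 filled points in a row, up to 2.59 for HERC5, while the neighbours of USP18, HLA-B and B2M are open.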

How the data were processed

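The authors deposited expected counts for each gene symbol, without scaling. STAR 2.5.2 and RSEM 1.3.0 and build hg38 are named in the submitters' processing notes, and the annotation and strand setting are not given in the sources used here. Between 7.97% and 8.76% of a library's values are not whole, so expected counts were rounded, where the design had assumed whole counts. Libraries of a group differed beyond sampling noise (chi-square per degree of freedom 5.75 to 62.25 over 12 pairs). Genes were filtered with edgeR 4.0.16 (filterByExpr, minimum count 10), leaving 14008 of 26475, scaled by TMM, and tested by edgeR's quasi-likelihood test with Benjamini-Hochberg adjustment over all tested genes, at 0.05 (R 4.3.3). The procedure was tested on simulated counts. CPM use TMM library sizes (reference NPY1R low replicate 4), and log2 CPM a prior count of 2. Transcript lengths and GC came from GENCODE 29 (longest transcript), positions and promoters from RefSeq.

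Gene lists, the genes named and the alternatives (scalings, TMM references, filters, DESeq2 1.42.0, limma-voom 3.58.1, GC offset, replicate terms, libraries left out, stricter threshold) were chosen with earlier results of these data known. Named were called genes, a fixed set of 13, the 3 most abundant and 3 largest uncalled changes, and at most 4 called genes per pathway list. Every other gene of the list is given to account for it, and further genes were named after their values were seen.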

Additional observations from a re-analysis of the deposited data

Results flagged for a closer look

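A library stood apart within its group of 4 by Dixon's test at the 95% level in 10 of 93 group values of the 47 genes, where chance gives 4.7. For PARP9, NPY1R high replicate 4 had 29.8 CPM and the other NPY1R high libraries 33.1 to 33.3. For IFIT5, NPY1R high replicate 3 had 7.38 CPM against 5.23 to 5.58. NPY1R low replicate 3 had 1.33 CPM of IFIT2, against 0.70 to 0.786, and 1.01 CPM of OAS1, against 0.604 to 0.668. NPY1R low replicate 2 had 0.841 CPM of OAS2 (24 counts), against 0.0671 to 0.137 (2 to 3 counts). The remaining 5 rest on a single count. They are UBE2L6 in NPY1R high replicate 3 (0.0362 CPM), IFITM1 and XAF1 in NPY1R low replicate 2 (0.035 CPM each), and IFI44L in NPY1R low replicate 3 (0.0458 CPM) and NPY1R high replicate 4 (0.0551 CPM).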

How the results depend on the processing

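Under 30 alternatives, the calls of HERC6, SAMD9 and IFIH1 held in each, and in replicates 3 and 4 only they were the 3 called of the list. The interferon-induced count of 6 higher fell to 3 in replicates 3 and 4 only and at an adjusted p under 0.01, and the 1 lower to 0 in both. The 2 lower class I genes became 0 and 1 there. Class I genes higher went from 0 to 1 (TAP1) with the other scalings and TMM references, 1 CPM in 4 libraries, 10 counts in every library, DESeq2, the GC offset, the replicate block with GC offset, and a term that splits replicates 1 and 2 from the rest. Transcription factors higher went from 0 to 1 or 2 in 13 fits to all libraries (1 with median-of-ratios, library totals, DESeq2, the GC offset and TMM references NPY1R high 1 and 2 and NPY1R low 3, and 2 with upper-quartile factors, TMM references NPY1R low 1 and 2, both stricter filters and the replicate term). In replicates 3 and 4 only, the interferon-induced median was 0.318.

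All genes called, 810 higher and 1094 lower, became 470 and 562 at 0.01, and 445 and 443 in replicates 3 and 4 only. Replicates 1 and 2 only gave 1421 higher, the replicate block with GC offset 1807 lower and the replicate term 1681 lower. With a library left out, all genes higher ranged from 624 to 1068 and lower from 625 to 1064, interferon-induced genes higher from 3 (without NPY1R high replicate 1 or 2 or NPY1R low replicate 3) to 6 and lower from 0 to 1, class I genes higher from 0 to 1 and lower from 1 to 2, and factors higher from 0 to 1. The medians ranged from 0.217 to 0.278, from -0.097 to 0.084 (class I) and from 0.125 to 0.196 (factors).

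Some uncalled genes changed sign. MX1 became 0.01 (median-of-ratios, TMM reference NPY1R high 4), 0.039 (upper quartile), 0.024 (library totals, TMM reference NPY1R low 2, no filter, 10 counts), 0.025 (1 CPM), 0.016, 0.015, 0.011, 0.023 and 0.017 (other TMM references), 0.008 (DESeq2), 0.006 (GC offset), 0.011 (replicate block and GC offset), 0.247 (replicates 3 and 4) and, with a library left out, ranged from -0.097 to 0.082. On the same basis OAS1 ranged from -0.285 to 0.051 and NLRC5 from -0.178 to 0.066. In replicates 3 and 4 only NLRC5 became 0.138 and TAPBP 0.035, and in replicates 1 and 2 only IFIT1 became -0.393. The causes were not tested.

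Shared replicate numbers were not taken as pairs: deviations of same-numbered libraries correlated at 0.339, 0.157, 0.0907 and 0.0178, and 2 of 8 libraries correlated best with their own number. With the replicate block, all 9 called genes of the lists remained, the call of ERAP2 was lost, and 1833 of all genes were called. A term that splits replicates 1 and 2 from 3 and 4 was not in the main fit. With it, 2886 of all genes were called (20.6%, beside 13.6% in the main fit). In the list 13 genes were then called, the 9 and IFITM3, IRF1, STAT2 and TAP1. Low counts limit the 13 genes left out by the filter. With no filter, all 47 genes of the list were tested and only the same 9 were called.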
